A study of Arabidopsis thaliana with 40 samples.

Results

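Ascorbate peroxidases are heme enzymes that reduce hydrogen peroxide to water with electrons from ascorbate. The family was taken as 8 loci of Arabidopsis thaliana named by locus code, APX1 (AT1G07890), APX2 (AT3G09640), APX3 (AT4G35000), APX5 (AT4G35970), APX6 (AT4G32320), sAPX (AT4G08390), tAPX (AT1G77490) and TL29 (AT4G09010, also called APX4), and all 8 were found among the 27826 loci of the deposited table. The rule names them by family and uses no measured value, though the family was picked with earlier results of these data known. No filter on dim loci was applied, so all 8 were tested in every comparison.

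Ascorbate oxidised by these enzymes is returned to its reduced form by monodehydroascorbate and dehydroascorbate reductases, with NADPH and glutathione as electron donors. In leaves, illuminated chloroplasts make hydrogen peroxide when photosystem I passes electrons to oxygen, and the stromal and thylakoid-bound enzymes sAPX and tAPX remove it beside the 2-Cys peroxiredoxins, which use thiols in place of ascorbate. APX1 and APX2 work in the cytosol, APX3 sits on the peroxisome membrane, and TL29 lies in the thylakoid lumen and is related to the family by sequence, without clear peroxidase activity with ascorbate.

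Transcripts were measured in shoots of soil-grown plants 4 weeks old, kept in days of 8 h light and 16 h dark. WT and 4 mutant lines were either left in normal light (NL, 80 µmol quanta m-2 s-1) or moved for 6 h to high light (HL, 800 µmol quanta m-2 s-1), with 4 arrays labelled as biological replicates in each of the 10 groups. The line 2cysprx is named for the plastid 2-Cys peroxiredoxins (2CPA and 2CPB), cyp20-3 for a stromal cyclophilin, oastlB for the plastid O-acetylserine(thiol)lyase and serat2;1 for the plastid serine acetyltransferase; the last 3 proteins belong to the machinery of cysteine synthesis in the chloroplast or bind to it. The sources used here do not state the alleles of the lines. All values below are log2 RMA levels of whole shoots, in which fewer cells of a type and less RNA per cell cannot be told apart.

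The labels 2cysprx and serat2;1 did not match the arrays fully. Levels of the transcripts for which cyp20-3 and oastlB are named are not reported here, so the match of those labels is not shown. On 2cysprx HL replicate 2 the 2CPA level was 9.0, against 5.13 to 5.78 on the other 3 arrays of that group. The 2cysprx light responses of APX1, APX3, sAPX and TL29 are therefore also given without it. So are the sAPX differences from WT that use this group. The other differences that use 2cysprx HL, those of 2CPA and the listed genes among them, include this array. The SERAT2;1 transcript averaged 6.38 in NL and 6.81 in HL on the arrays labelled serat2;1, no lower than in WT (6.36 and 6.34). Of 6 root and 5 floral markers, none was called in any of the 17 comparisons, and their mean levels stayed between 2.16 and 2.35 and between 2.06 and 2.19 over the 10 groups, while the mean of 4 leaf markers was 8.16 to 8.38. That mean hides a dim leaf marker, since the means of single leaf markers over all arrays ran from 2.34 to 13.79. The leaf markers were called in 9 of 68 tests, where 6.36% of the tests of all loci were called. In the WT light response 2 of the 4 rose, as did 10.3% of all loci. Pearson's r between arrays was 0.973 to 0.993.

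Levels of different probe sets cannot be ranked as amounts of transcript, since each probe set has its own response. As a description of the arrays, the means of TL29, APX3 and tAPX over all 40 arrays stood at the 99.2, 98.5 and 98.5 percentile of the 27826 loci. sAPX stood at the 92.6, APX1 at the 91.1, APX6 at the 85.6, APX5 at the 52.6 and APX2 at the 16.8 percentile. Whether the probe sets of close relatives, such as APX1 and APX2 or sAPX and tAPX, share probes is not stated, so signal crossing between them is uncertain. The plot of every array shows all 8 genes.

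**Figure D1:**
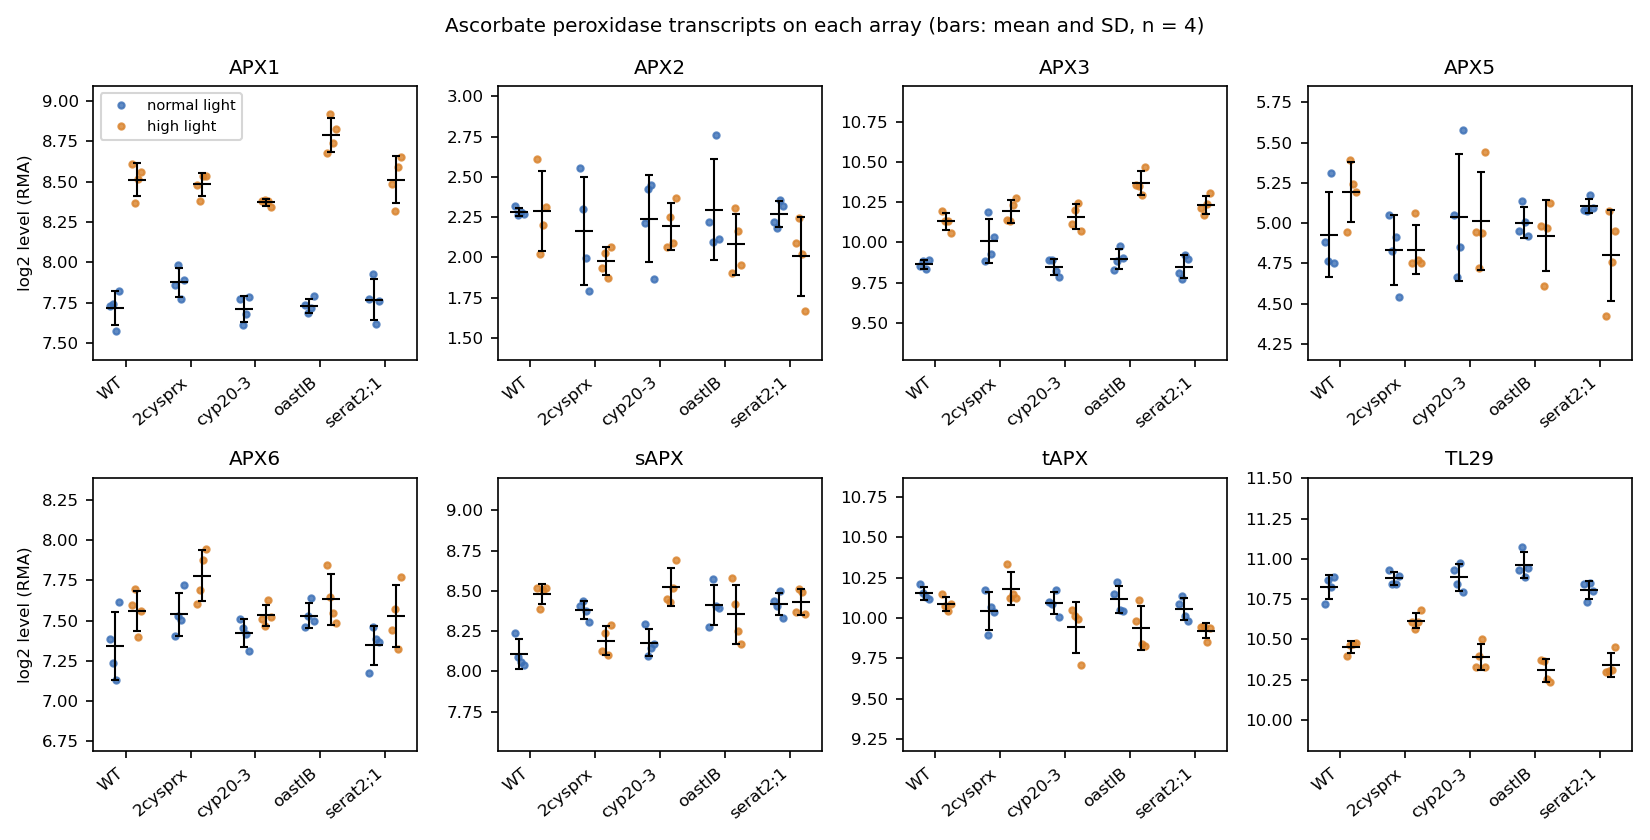
Log2 RMA level (vertical axis, 1 panel per gene, each spanning the same log2 width) of the 8 ascorbate peroxidase genes on each array, for the 5 genotypes in normal light (blue) and high light (orange), with bars for the mean and SD of 4 arrays. Orange lies above blue in every genotype for APX1 and below it in every genotype for TL29, while for sAPX orange lies above blue in WT and cyp20-3 and below it in 2cysprx.

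The first question was how the family answers 6 h of high light in each genotype. In WT, APX1, APX3 and sAPX rose and TL29 fell, while APX2, APX5, APX6 and tAPX were not called. Limma called 4 of the 8 members at an adjusted p under 0.05, against 19.8% of all 27826 loci. The 3 rises stood beside 10.3% of all loci that rose and the 1 fall beside 9.58% that fell, and the median log2 difference of the 8 was 0.24 against -0.02 over all loci. In 2cysprx 1 member rose (4.48% of all loci did) and 1 fell (4.08%, 8.55% called in all). In cyp20-3 there were 3 rises (8.83% of all loci) and 1 fall (8.99%, 17.8% called in all). In oastlB there were 2 rises (7.9%) and 1 fall (8.25%, 16.2% in all), and in the arrays labelled serat2;1 also 2 rises (5.54%) and 1 fall (5.9%, 11.4% in all). The members' medians in these 4 lines were 0.07, 0.04, -0.07 and -0.06, and those of all loci -0.01, -0.03, -0.02 and 0.00. Over the 5 genotypes this made 16 calls in 40 member tests, or 40%, where 14.8% of the tests of all loci were called. These tests take the same 8 genes in each genotype, so they are not independent. Most members were bright, and calls were more frequent among bright loci. With brighter loci alone, fewer were tested, yet 5536 were called in WT, against 5519 among all 27826. In 2cysprx these counts were 2874 and 2380. Whether members were called more often than equally bright loci was not tested. The plot of light responses shows APX1 and TL29 called in every genotype, APX3 in all but 2cysprx and sAPX in WT and cyp20-3 alone.

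**Figure D2:**
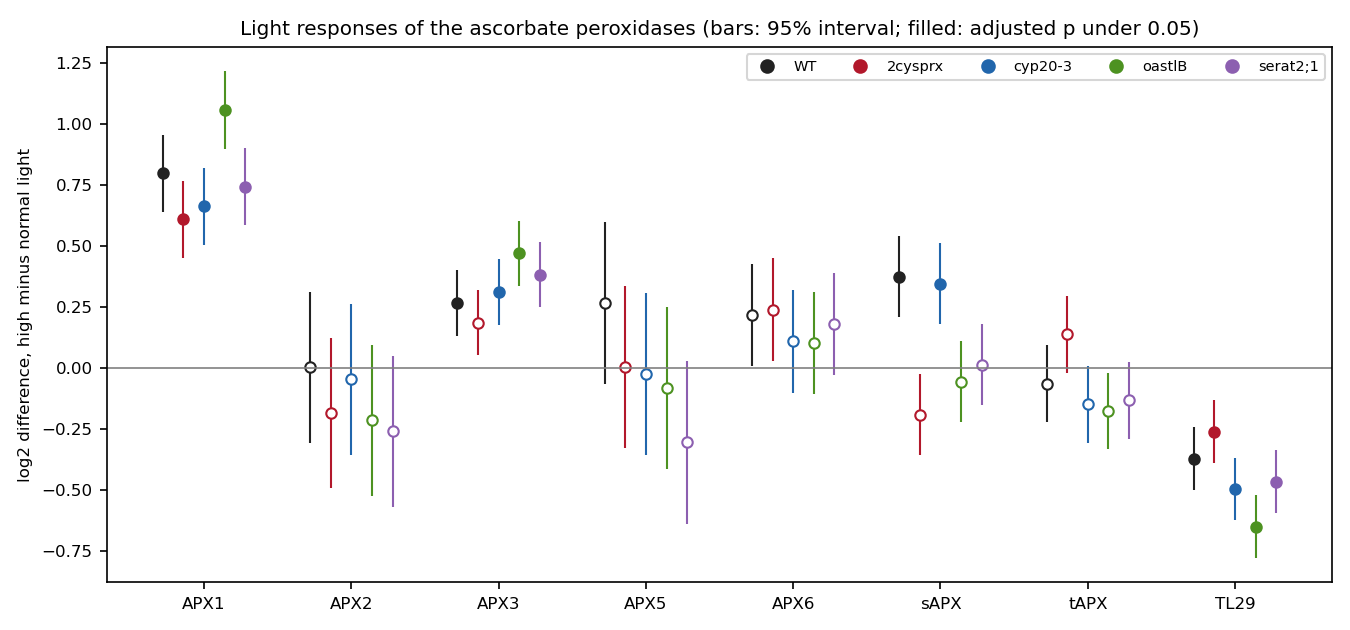
Log2 difference of high minus normal light (vertical axis) for each of the 8 genes, with 1 point per genotype, a bar for the 95% interval from limma, and filled points where the adjusted p is under 0.05. APX1 lies between 0.61 and 1.06 and TL29 between -0.65 and -0.26, all filled, whereas the sAPX points run from 0.38 in WT to -0.19 in 2cysprx.

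APX1, the main cytosolic enzyme, rose in all 5 genotypes. In WT it read 7.73, 7.74, 7.57 and 7.82 on NL replicates 1 to 4 and 8.61, 8.37, 8.52 and 8.56 in HL. In 2cysprx it read 7.86, 7.98, 7.77 and 7.89 in NL and 8.48, 8.38, 8.54 and 8.54 in HL. Every HL array thus lay above every NL array in both genotypes. In cyp20-3 the levels were 7.77, 7.61, 7.68 and 7.79 in NL and 8.38, 8.38, 8.38 and 8.34 in HL. In oastlB they were 7.73, 7.69, 7.71 and 7.79 in NL and 8.68, 8.92, 8.74 and 8.82 in HL. In the arrays labelled serat2;1 they were 7.77, 7.93, 7.62 and 7.76 in NL and 8.49, 8.32, 8.59 and 8.65 in HL. Here too NL and HL did not overlap, and the oastlB HL arrays were the highest of all 40. The rise was 0.80 ± 0.08 (SE, n = 4 against 4) on the log2 scale in WT, or 1.74-fold (limma, adjusted p = 1.95e-09). It was 1.53-fold in 2cysprx (0.61, adjusted p = 1.63e-06; 0.64 without 2cysprx HL replicate 2) and 1.58-fold in cyp20-3 (0.66, adjusted p = 8.21e-08). In oastlB it was 2.08-fold (1.06, adjusted p = 5.02e-12) and in the arrays labelled serat2;1 1.67-fold (0.74, adjusted p = 3.19e-08). APX1 was called in all 5 genotypes under every alternative tried.

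In the order of its group means APX1 made 3 sets. oastlB HL stood highest at 8.79 and did not overlap the next group, WT HL at 8.51. The other HL groups followed down to cyp20-3 HL at 8.37, and the 5 NL groups came after a step of 0.50, between 7.87 in 2cysprx and 7.71 in cyp20-3. Within the lower 2 sets, neighbours overlapped. The oastlB HL level was 0.28 ± 0.08 above WT HL, which limma did not call (adjusted p = 0.0809). It was called with an intensity trend in the prior variance (0.0415) and among brighter loci alone (0.0391). The light response itself was 0.26 ± 0.11 larger in oastlB than in WT (adjusted p = 0.218).

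APX2, the cytosolic enzyme known for its strong induction by heat and excess light, stayed at the dim end of the arrays. It read 2.32, 2.26, 2.28 and 2.27 in WT NL and 2.61, 2.02, 2.20 and 2.32 in WT HL. The WT HL arrays thus spread on both sides of the NL arrays. Over all 40 arrays its level ran from 1.67 to 2.76, near the lower quartile of locus means at 2.59. The WT light response was 0.00 with a 95% interval from -0.31 to 0.31 (limma, adjusted p = 0.994), and those of the mutants lay between -0.26 and -0.05. It was not called in any of the 17 comparisons. HSFA2 (AT2G26150), a heat shock factor known to activate APX2, rose by 3.69 ± 0.43 in WT on the same arrays (adjusted p = 6.69e-08), from 2.33 to 3.03 in NL to between 4.30 and 8.16 in HL. A dim reading does not show that a transcript is missing, since the probe set of LHCB1.1, a light-harvesting gene of leaves, averaged 2.34 over the 40 arrays.

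APX3, the peroxisome-membrane enzyme, rose in 4 of 5 genotypes, by less than APX1. WT read 9.85, 9.88, 9.83 and 9.89 on the NL arrays and 10.19, 10.13, 10.13 and 10.06 on the HL arrays. cyp20-3 read 9.89, 9.89, 9.82 and 9.79 in NL and 10.12, 10.20, 10.24 and 10.07 in HL. NL and HL were separate in both. oastlB read 9.83, 9.88, 9.98 and 9.91 in NL and 10.36, 10.35, 10.29 and 10.47 in HL. The arrays labelled serat2;1 read 9.81, 9.77, 9.92 and 9.90 in NL and 10.22, 10.17, 10.24 and 10.30 in HL. These lines also had no overlap between lights, with oastlB HL the highest group mean at 10.37. 2cysprx read 9.88, 10.19, 9.93 and 10.04 in NL and 10.14, 10.13, 10.23 and 10.28 in HL, where NL replicate 2 lay above 2 HL arrays. The response was 0.27 ± 0.07 in WT (1.2-fold, limma adjusted p = 0.0033), 0.31 in cyp20-3 (adjusted p = 0.000768), 0.47 in oastlB (adjusted p = 2.01e-06) and 0.38 in the arrays labelled serat2;1 (adjusted p = 0.00011). In 2cysprx the difference of 0.19 was not called (adjusted p = 0.0786; 0.081 without 2cysprx HL replicate 2), and leaving out 2cysprx NL replicate 2 gave 0.25 with an adjusted p of 0.016. It was also called with an intensity trend (0.0267), among brighter loci (0.0282) and with array weights (0.0308). The difference between the 2cysprx and WT responses was -0.08 ± 0.09 and not called. The WT call ended when the spread was taken from the WT arrays alone (adjusted p = 0.0523).

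The order of the APX3 group means placed all 5 HL groups (10.13 to 10.37) above all 5 NL groups (9.85 to 10.01), and every group overlapped its neighbour. oastlB HL exceeded WT HL by 0.24 ± 0.07 without overlap, which was not called (limma, adjusted p = 0.0761). With an intensity trend the adjusted p was 0.0204, and among brighter loci 0.0331.

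APX5, a close relative of APX3, and APX6, which is known from maturing seeds, were not called in any comparison. APX5 lay between 4.42 and 5.58 over the 40 arrays, with light differences from -0.31 in the arrays labelled serat2;1 to 0.27 in WT. Its HL arrays lay below its NL arrays in the arrays labelled serat2;1 without overlap, at an adjusted p of 0.261. APX6 lay between 7.13 and 7.94 and its light difference was above 0 in all 5 genotypes, from 0.10 to 0.24. None of those was called, with adjusted p from 0.148 to 0.615. In WT, where the APX6 difference was 0.22 ± 0.10, leaving out WT NL replicate 4 gave 0.31 with an adjusted p of 0.0374. Within-group spread differed among the genes: the pooled SD over arrays of a group was 0.24 for APX5 and 0.22 for APX2, against 0.07 for both APX3 and TL29.

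Of the chloroplast genes, only sAPX was called in comparisons of a mutant with WT. Whether its genotype dependence exceeds that of TL29 or tAPX was not tested. WT read 8.24, 8.09, 8.06 and 8.04 in NL and 8.52, 8.39, 8.50 and 8.52 in HL. cyp20-3 read 8.29, 8.10, 8.14 and 8.17 in NL and 8.45, 8.43, 8.52 and 8.69 in HL. In both genotypes every HL array lay above every NL array. 2cysprx read 8.41, 8.44, 8.37 and 8.31 in NL and 8.13, 8.24, 8.10 and 8.29 in HL. The order of the lights was opposite there, with every HL array below every NL array. oastlB read 8.27, 8.57, 8.41 and 8.39 in NL and 8.58, 8.42, 8.25 and 8.17 in HL. The arrays labelled serat2;1 read 8.44, 8.41, 8.50 and 8.33 in NL and 8.37, 8.51, 8.49 and 8.36 in HL. NL and HL overlapped in these lines.

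The sAPX rise was 0.38 ± 0.08 in WT, or 1.3-fold (limma, adjusted p = 0.000856), and 0.35 ± 0.08 in cyp20-3, or 1.27-fold (adjusted p = 0.00226). The differences were -0.19 in 2cysprx (adjusted p = 0.16), -0.06 in oastlB (0.742) and 0.01 in the arrays labelled serat2;1 (0.952), none of them called. Without 2cysprx HL replicate 2 the 2cysprx value was -0.21 (adjusted p = 0.177). The sAPX group means ran from 8.52 in cyp20-3 HL and 8.48 in WT HL, through the 2 lights of serat2;1 and oastlB between 8.43 and 8.35 with 2cysprx NL at 8.38 among them, to 8.19 in 2cysprx HL, 8.18 in cyp20-3 NL and 8.11 in WT NL. Every group overlapped its neighbour in that order.

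**Figure D3:**
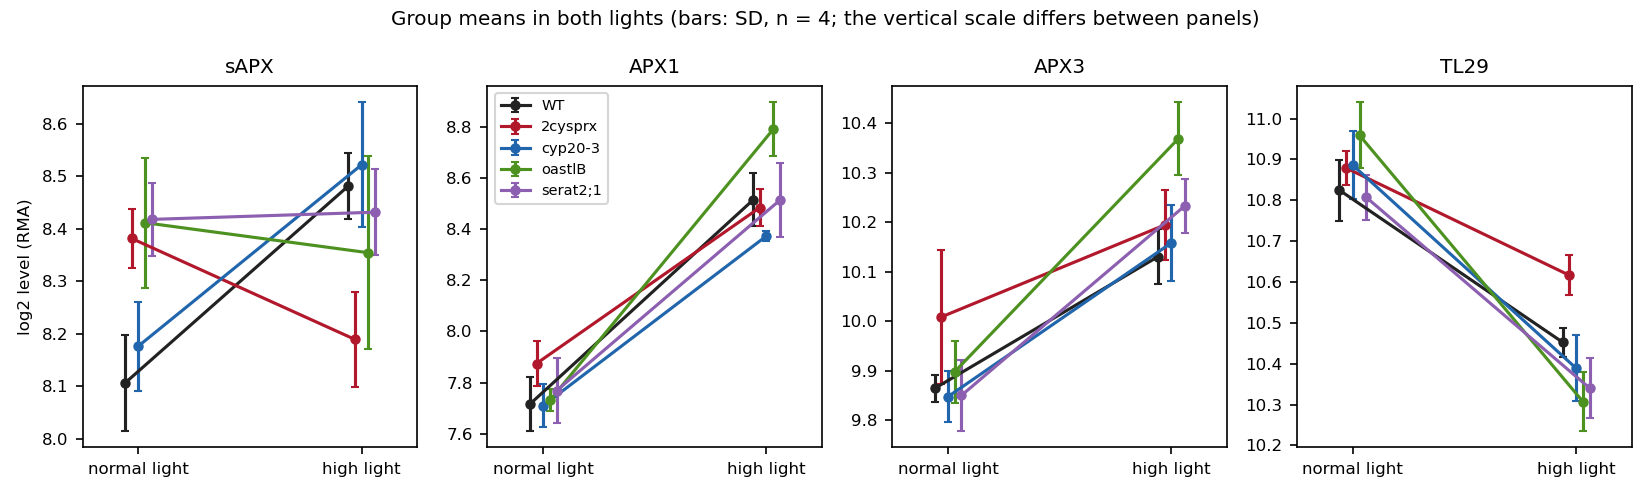
Group means of log2 RMA level with SD bars (n = 4) in normal and high light for sAPX, APX1, APX3 and TL29, with 1 line per genotype; the vertical scale differs between panels. The sAPX lines of WT and cyp20-3 climb from about 8.11 and 8.18, those of oastlB and serat2;1 are nearly level and that of 2cysprx goes down, whereas the 5 lines of each other panel run the same way.

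The thylakoid-bound tAPX did not share that pattern. It read 10.21, 10.15, 10.13 and 10.12 in WT NL and 10.15, 10.08, 10.04 and 10.09 in WT HL, and the lights overlapped. Over all 40 arrays it lay between 9.71 and 10.34. Its light difference was -0.06 in WT with a 95% interval from -0.22 to 0.09 (limma, adjusted p = 0.632), and 0.14 in 2cysprx. The cyp20-3 value was -0.15, that of oastlB -0.18 and that of the arrays labelled serat2;1 -0.13. None was called, although leaving out oastlB HL replicate 2 gave -0.24 in oastlB with an adjusted p of 0.044. In the arrays labelled serat2;1 the HL levels (9.85 to 9.95) lay below the NL levels (9.98 to 10.13) without overlap, at a limma adjusted p of 0.308. In 12 comparisons involving WT and a mutant, tAPX was not called either.

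TL29, the lumen protein, fell in all 5 genotypes. WT read 10.72, 10.87, 10.83 and 10.89 in NL and 10.40, 10.46, 10.47 and 10.48 in HL. 2cysprx read 10.93, 10.85, 10.85 and 10.89 in NL and 10.61, 10.57, 10.61 and 10.68 in HL. All HL arrays lay below all NL arrays, and those of 2cysprx HL stayed above those of WT HL. cyp20-3 read 10.93, 10.84, 10.98 and 10.79 in NL and 10.33, 10.40, 10.50 and 10.33 in HL. oastlB read 10.93, 11.07, 10.89 and 10.94 in NL and 10.37, 10.37, 10.25 and 10.24 in HL. The arrays labelled serat2;1 read 10.85, 10.73, 10.85 and 10.80 in NL and 10.29, 10.30, 10.31 and 10.45 in HL. No line had an overlap between lights. The difference was -0.37 ± 0.06 in WT (limma, adjusted p = 3.76e-05) and smallest in 2cysprx at -0.26 (0.00587). It was -0.65 in oastlB (1.6e-09), -0.50 in cyp20-3 (3.64e-07) and -0.47 in the arrays labelled serat2;1 (2.86e-06). For 2cysprx it was -0.25 without HL replicate 2 (adjusted p = 0.0237), and with the spread taken from the 2cysprx arrays alone the call ended (adjusted p = 0.162).

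The TL29 means of the NL groups ran from 10.96 in oastlB to 10.81 in serat2;1, with overlap between neighbours. 2cysprx HL followed at 10.62, apart from the groups above and below it, and then WT HL at 10.45 down to oastlB HL at 10.31. oastlB thus had both the highest NL mean and the lowest HL mean. Its light response was below that of WT (-0.28 ± 0.09), which limma did not call (adjusted p = 0.084); with an intensity trend the adjusted p was 0.0227 and among brighter loci 0.0281.

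The second question was whether the mutants differ from WT in either light. All 4 mutants were set against the same 4 WT arrays of a light, so these comparisons are not independent of each other. In NL, sAPX was the member called, and it rose in 3 of the 4 lines. Limma called 1 of 8 members in 2cysprx (10.1% of all loci called), 1 in oastlB (3.42%) and 1 in the arrays labelled serat2;1 (2.42%). In cyp20-3 it called 0 of 8, with 0 at an unadjusted p under 0.05, where 0.0467% of all loci were called. Set against the WT NL arrays at 8.04 to 8.24, the sAPX level was 0.28 ± 0.08 higher in 2cysprx (adjusted p = 0.0243), 0.31 ± 0.08 higher in oastlB (0.0283) and 0.31 ± 0.08 higher in the arrays labelled serat2;1 (0.0318). The arrays of all 3 groups lay above every WT array, since the lowest of them read 8.27. In cyp20-3 the difference was 0.07 (adjusted p = 0.867) and the arrays overlapped WT.

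These 3 calls lay near the threshold and ended when single arrays were left out, while the differences moved little. That of 2cysprx ended without any 1 of 2cysprx NL replicates 1 and 2 and WT NL replicates 2, 3 and 4, at adjusted p from 0.0559 to 0.0774 and differences from 0.25 to 0.27. That of oastlB ended without oastlB NL replicate 2 or 3 or WT NL replicate 2, 3 or 4 (0.0632 to 0.129, with differences from 0.25 to 0.31), and that of serat2;1 without its NL replicate 1, 2 or 3 or WT NL replicate 2, 3 or 4 (0.0695 to 0.103, with differences from 0.29 to 0.31). With the spread taken from the arrays compared alone, the adjusted p was 0.186, 0.268 and 0.21.

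In HL, sAPX was again the member called, and it fell in 2cysprx. Limma called 1 of 8 members there (2.21% of all loci). It called 0 of 8 in cyp20-3 (2.24%, with 0 members at an unadjusted p under 0.05), 0 in oastlB (0.855%, with 3 members, APX1 and APX3 above and TL29 below WT, at an unadjusted p under 0.05) and 0 in the arrays labelled serat2;1 (0.956%, with 2 such members, APX5 and tAPX, both below WT). The percentages are at the adjusted threshold. At an unadjusted p under 0.05, 1876 of the 27826 loci lay above and 1951 below WT in oastlB HL. In serat2;1 HL these numbers were 1870 and 1824. In 2cysprx HL, 2 members lay above and 3 below WT at that unadjusted threshold, beside 1884 and 1799 of all loci. The 2cysprx HL arrays read 8.10 to 8.29 for sAPX and the WT HL arrays 8.39 to 8.52, so they did not overlap. The difference was -0.29 ± 0.08 (limma, adjusted p = 0.0494). The call ended when any 1 of the 8 arrays was left out (adjusted p from 0.0535 to 0.161, differences from -0.33 to -0.26), 2cysprx HL replicate 2 among them (-0.31, adjusted p = 0.0644). It also ended with a replicate block (0.0571) and with the spread of these arrays alone (0.163). The sAPX difference from WT in HL was 0.04 in cyp20-3, -0.13 in oastlB and -0.05 in the arrays labelled serat2;1, none of them called. TL29 in 2cysprx HL lay 0.16 ± 0.06 above WT HL without overlap, at an adjusted p of 0.212.

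The third question was whether the response to light itself differs from that of WT, tested as the mutant's difference minus the WT difference. That value equals the mutant's difference from WT in HL minus its difference from WT in NL. It is thus not independent of the comparisons above, and a higher NL level alone lowers it. sAPX was called in 2cysprx and oastlB, each time lower. Limma called 1 of 8 members in 2cysprx (6.09% of all loci), 0 in cyp20-3 (0.855%, with 0 members at an unadjusted p under 0.05), 1 in oastlB (2.8%) and 0 in the arrays labelled serat2;1 (2.29%, with 2 members, APX5 and sAPX, both lower, at an unadjusted p under 0.05). In 2cysprx the sAPX response was -0.57 ± 0.12 from that of WT, with a 95% interval from -0.80 to -0.33 (adjusted p = 0.00171). It was called under every alternative tried, at adjusted p from 0.00033 to 0.012, and stood at -0.58 (0.00261) without 2cysprx HL replicate 2. In oastlB the difference was -0.43 ± 0.12, with an interval from -0.67 to -0.20 (adjusted p = 0.0359). In the arrays labelled serat2;1 it was -0.36 ± 0.12 and not called (adjusted p = 0.0897), though with an intensity trend the adjusted p was 0.0491 and among brighter loci 0.0397. In cyp20-3 it was -0.03, with an interval from -0.26 to 0.21 (adjusted p = 0.974).

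The oastlB call ended without any 1 of oastlB NL replicates 2 and 3, oastlB HL replicates 3 and 4, WT NL replicates 2 and 4 and WT HL replicates 1, 3 and 4. The adjusted p was then 0.0556 to 0.092 and the difference -0.43 to -0.37, and with the spread of the arrays compared alone the adjusted p was 0.161. None of these comparisons tested one mutant against another, so a called difference in oastlB and an uncalled one in serat2;1 do not show that these lines differ.

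Over the 40 arrays the members that moved with light moved together or against each other. Pearson's r was 0.92 between APX1 and APX3, -0.89 between APX1 and TL29 and -0.81 between APX3 and TL29. For sAPX it was 0.27 with APX1 and -0.38 with tAPX. The arrays of these correlations share the 2 lights and the 5 genotypes, so they describe the group pattern.

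The loci whose pattern was most like a member's were named as the 3 with the highest Pearson r over the 40 arrays. For APX1 they were LEA3 (AT1G02820, r = 0.967), AAE7 (AT3G16910, 0.963) and BT1 (AT5G63160, 0.960). For APX3 they were DAC (AT3G17930, 0.943), AT1G68660 (0.937) and AT5G62140 (0.931), and for TL29 AT2G42220 (0.948), HEME2 (AT2G40490, 0.948) and AT2G44920 (0.944). sAPX had less close neighbours in CSDP1 (AT4G36020, 0.798), AT1G14060 (0.764) and AT2G18900 (0.748). The highest values were 0.711 for APX6, 0.707 for tAPX, 0.668 for APX5 and 0.602 for APX2, whose levels moved little beyond the spread within groups.

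The other genes of hydrogen peroxide and ascorbate turnover were followed in 5 lists with 57 genes in all. Their counts stand beside 19.8% of all loci called in the light response of WT, 17.8% in cyp20-3, 16.2% in oastlB, 11.4% in the arrays labelled serat2;1 and 8.55% in 2cysprx. Among 10 genes of ascorbate regeneration and glutathione reduction, 3 rose and 2 fell in WT, 2 and 2 in 2cysprx, 3 and 3 in cyp20-3, 4 and 2 in oastlB and 3 and 2 in the arrays labelled serat2;1. DHAR2 (AT1G75270), a dehydroascorbate reductase that returns oxidised ascorbate to use, rose from 3.41 to 4.81 in WT (1.40 ± 0.17, limma adjusted p = 1.94e-07), by 1.02 in cyp20-3 (4.06e-05), by 0.73 in oastlB (0.0022) and by 0.78 in serat2;1 (0.0018). In 2cysprx the DHAR2 difference was 0.31 and not called (0.327). DHAR1 (AT1G19570), its close relative, rose in all 5 genotypes, by 0.68 ± 0.14 in WT (limma, adjusted p = 0.000556, with overlap of the lights), 1.32 in oastlB (1.46e-08), 0.96 in cyp20-3 (5.84e-06), 0.86 in 2cysprx (9.27e-05) and 0.78 in serat2;1 (0.000223). DHAR3 (AT5G16710), the plastid relative, also rose in all 5, by 0.23 in oastlB to 0.43 in cyp20-3, with 0.32 in 2cysprx (0.00992). GR2 (AT3G54660), the plastid glutathione reductase, fell in WT (-0.28 ± 0.08, adjusted p = 0.00582), cyp20-3 (-0.47), oastlB (-0.47) and serat2;1 (-0.50), and stood at -0.22 in 2cysprx (0.063). GR1 (AT3G24170), the cytosolic form, was 0.35 ± 0.07 above WT in 2cysprx NL (0.00132). The DHAR2 response was lower in 2cysprx than in WT (-1.09 ± 0.24, limma adjusted p = 0.00403), where 6.09% of all loci were called. In HL its level in 2cysprx was below WT (-0.70 ± 0.17, 0.0204), the 1 call of the list there beside 2.21% of all loci. That count went to 0 without 2cysprx HL replicate 4 or WT HL replicate 3 or 4. The count of 5 called in WT fell to 3 without WT NL replicate 3 or WT HL replicate 1, and that of 4 in 2cysprx to 2 without 2cysprx NL replicate 1 or 3 or HL replicate 3. In 2cysprx against WT in NL 2 of the 10 genes were called, where 10.1% of all loci were, and 1 without WT NL replicate 1.

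Of 9 genes of ascorbate synthesis, 2 rose and 0 fell in WT and in cyp20-3, 1 rose and 1 fell in 2cysprx, 3 rose and 1 fell in oastlB and 2 rose and 1 fell in the arrays labelled serat2;1. VTC2 (AT4G26850), the GDP-L-galactose phosphorylase that largely sets the rate of the pathway, rose in all 5 genotypes, by 0.89 ± 0.09 in WT (limma, adjusted p = 2.56e-09). Its rise was largest in oastlB (1.09, 4.04e-11), followed by cyp20-3 (0.60, 4.75e-06), 2cysprx (0.53, 9.07e-05) and serat2;1 (0.48, 0.000254) among the mutants. VTC4 (AT3G02870), an L-galactose 1-phosphate phosphatase, fell in 2cysprx (-0.48, adjusted p = 0.000621), oastlB (-0.48, 0.000256) and serat2;1 (-0.43, 0.00164), and stood at 0.05 in WT (0.787). GME (AT5G28840), the GDP-mannose epimerase, rose in WT by 0.70 ± 0.08 (5.79e-08), in cyp20-3 and oastlB by 0.53 each and in serat2;1 by 0.39 (0.0012), with 0.25 in 2cysprx (0.051). In NL, 4 of the 9 rose in 2cysprx against WT, where 10.1% of all loci were called, among them GME by 0.53 ± 0.08 (2.69e-05) and VTC2 by 0.37 ± 0.09 (0.00396). Its light response differed from that of WT for 3 of 9, all lower, where 6.09% of all loci were called, with VTC4 at -0.53 ± 0.13 (0.0105) and GME at -0.45 ± 0.12 (0.0121). The count of 4 fell to 2 without 2cysprx NL replicate 1 or WT NL replicate 1 and to 1 with the spread of the arrays compared alone, which also took the count of 3 to 0. In HL, PMI1 (AT3G02570), a mannose isomerase, was 0.28 above WT in cyp20-3 (0.0361) and VTC2 below it (-0.33, 0.0399). In oastlB HL, VTC1 (AT2G39770), which makes GDP-mannose, was 0.34 above WT (0.0495) and VTC4 below it (-0.38, 0.0403). These HL counts of 2 in each line stood beside 2.24% of all loci called in cyp20-3 and 0.855% in oastlB. They ran from 0 to 1 in cyp20-3 and 0 to 2 in oastlB as each array was left out. Both fell to 0 with the spread of the arrays compared alone.

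Among 10 superoxide dismutases and catalases, which make and remove hydrogen peroxide, 1 rose and 2 fell in WT and in 2cysprx, 2 rose and 0 fell in cyp20-3 and serat2;1, and 3 rose and 0 fell in oastlB. CAT2 (AT4G35090), the main leaf catalase of peroxisomes, rose in every genotype, by 1.13 ± 0.13 in WT (limma, adjusted p = 2.57e-08) and by 0.96 to 1.14 in the mutants. CAT1 (AT1G20630), another catalase, fell in WT (-0.39 ± 0.09, 0.00128). FSD1 (AT4G25100), an iron superoxide dismutase, rose by 1.07 ± 0.18 in cyp20-3 (2.32e-05), 0.53 in oastlB (0.0339, with overlap) and 0.54 in serat2;1 (0.0388), and CSD1 (AT1G08830), the cytosolic copper-zinc form, rose by 0.42 in oastlB (0.00728). The serat2;1 count of 2 fell to 1 without its NL replicate 1, 3 or 4 or its HL replicate 1 or 4. In NL, 3 of the 10 rose and 1 fell in 2cysprx against WT, where 10.1% of all loci were called, and with the spread of the arrays compared alone 1 was called. CAT2 was 0.53 ± 0.13 higher there (0.00374). FSD3 (AT5G23310), a plastid iron superoxide dismutase, was 0.62 ± 0.10 higher (limma, adjusted p = 3.97e-05). It fell with light in 2cysprx (-0.47 ± 0.10, 0.00136), a response lower than that of WT (-0.64 ± 0.14, 0.00275). In oastlB NL, FSD2 (AT5G51100), a further plastid form, was 0.38 ± 0.09 above WT (0.0171). It was the 1 call of the list there, where 3.42% of all loci were called. The list's count went to 0 with the spread of the arrays compared alone. It also did so without oastlB NL replicate 3 or 4 or WT NL replicate 4.

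Among 7 plastid peroxidases of the thiol type, 2 rose and 0 fell in WT, 2cysprx and cyp20-3, 2 rose and 1 fell in oastlB and 3 rose and 0 fell in serat2;1. PRXIIE (AT3G52960), a plastid peroxiredoxin, rose by 0.57 ± 0.11 in WT (limma, adjusted p = 0.000149), 0.39 in 2cysprx (0.0167), 0.44 in cyp20-3 (0.00344) and 0.32 in serat2;1 (0.0457). PRXQ (AT3G26060), another plastid peroxiredoxin, rose by 0.28 in WT (0.0172, with overlap), 0.34 in 2cysprx (0.00748), 0.24 in oastlB (0.0455, with overlap) and 0.34 in serat2;1 (0.00582). GPX1 (AT2G25080) fell in oastlB (-0.66 ± 0.12, 0.000166) and its plastid relative GPX7 (AT4G31870) rose by 0.52 there (0.0296) and by 0.47 in cyp20-3 (0.0477, with overlap), while SRX (AT1G31170), the sulfiredoxin that repairs 2-Cys peroxiredoxins, rose by 0.45 in serat2;1 (0.00601). The light count of this list fell to 1 without WT NL replicate 2 or 3 or HL replicate 1 or 2 in WT, without NL replicate 2 or HL replicate 1 in 2cysprx, without NL replicate 1 or 3 or HL replicate 2, 3 or 4 in cyp20-3 and without NL replicate 2 or HL replicate 4 in oastlB. Against WT the 2cysprx line had 2CPA at -5.39 ± 0.40 in NL (3e-11) and at -4.65 ± 0.40 in HL (1.87e-09), and 2CPB at -2.38 ± 0.15 (1.96e-12) and -2.33 ± 0.15 (3.71e-12). In each light 1 more gene of that list rose in 2cysprx, where 10.1% of all loci were called in NL and 2.21% in HL.

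Of 21 heat shock factors, which include the known activators of APX2, 3 rose and 2 fell in WT, 1 and 0 in 2cysprx, 1 and 2 in cyp20-3, 3 and 1 in oastlB and 1 and 0 in serat2;1. HSFA2 also rose in oastlB, by 2.09 ± 0.43 (limma, adjusted p = 0.000489). HSFA7A (AT3G51910) rose in WT by 1.46 ± 0.34 (0.00166), and HSFA3 (AT5G03720) rose by 0.73 in 2cysprx (0.00624), 0.91 in cyp20-3 (0.000276), 0.80 in oastlB (0.0012, with overlap) and 1.12 in serat2;1 (3.2e-05). HSFC1 (AT3G24520) fell in cyp20-3 (-1.01 ± 0.19, 0.00019) and HSFB1 (AT4G36990) rose by 0.69 in oastlB (0.00226). Without cyp20-3 HL replicate 3 the cyp20-3 count was 5 in place of 3.

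In NL, HSFC1 was below WT in 2cysprx (-0.65 ± 0.19, limma adjusted p = 0.0229). It was 1 of 2 factors called there out of 21, where 10.1% of all loci were called. The count fell to between 0 and 1 without 2cysprx NL replicate 2 or 3 or WT NL replicate 1 or 3. The HSFA2 level in HL differed from WT by -2.51 ± 0.43 in 2cysprx (limma, adjusted p = 0.000573) and by -2.99 ± 0.43 in serat2;1 (0.000186), and, with overlap, by -2.71 in cyp20-3 (0.000108) and -1.69 in oastlB (0.0495). HSFA7A in HL was below WT in 2cysprx (-1.47 ± 0.34, 0.0136), cyp20-3 (-1.45, 0.0116) and serat2;1 (-1.61, 0.0135), and HSFB2B (AT4G11660) in cyp20-3 (-1.57 ± 0.27, 0.00034), serat2;1 (-1.17, 0.0288) and, with overlap, 2cysprx (-1.12, 0.0186). In HL the factors called numbered 3 in 2cysprx (2.21% of all loci called), 4 in cyp20-3 (2.24%), 1 in oastlB (0.855%) and 3 in serat2;1 (0.956%). Without WT HL replicate 3 they fell to 1 in 2cysprx and serat2;1 and to 2 in cyp20-3. The counts in 2cysprx and serat2;1 were also 1 without WT HL replicate 4, and that of serat2;1 without its HL replicate 4. The single call in oastlB HL ran from 0 to 2 over the arrays left out. The HSFA2 response to light was lower than that of WT in 2cysprx (-2.48 ± 0.61, limma adjusted p = 0.00956), serat2;1 (-2.69, 0.0152) and cyp20-3 (-2.58, 0.0309). It was the 1 factor called in each, where 6.09%, 2.29% and 0.855% of all loci were called. With the spread of the arrays compared alone each count fell to 0. In cyp20-3 the count also ran from 0 to 2 as each array was left out. APX2 was not called in any of these comparisons. The plot of called genes shows the light counts of all 6 groups of genes.

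**Figure D4:**
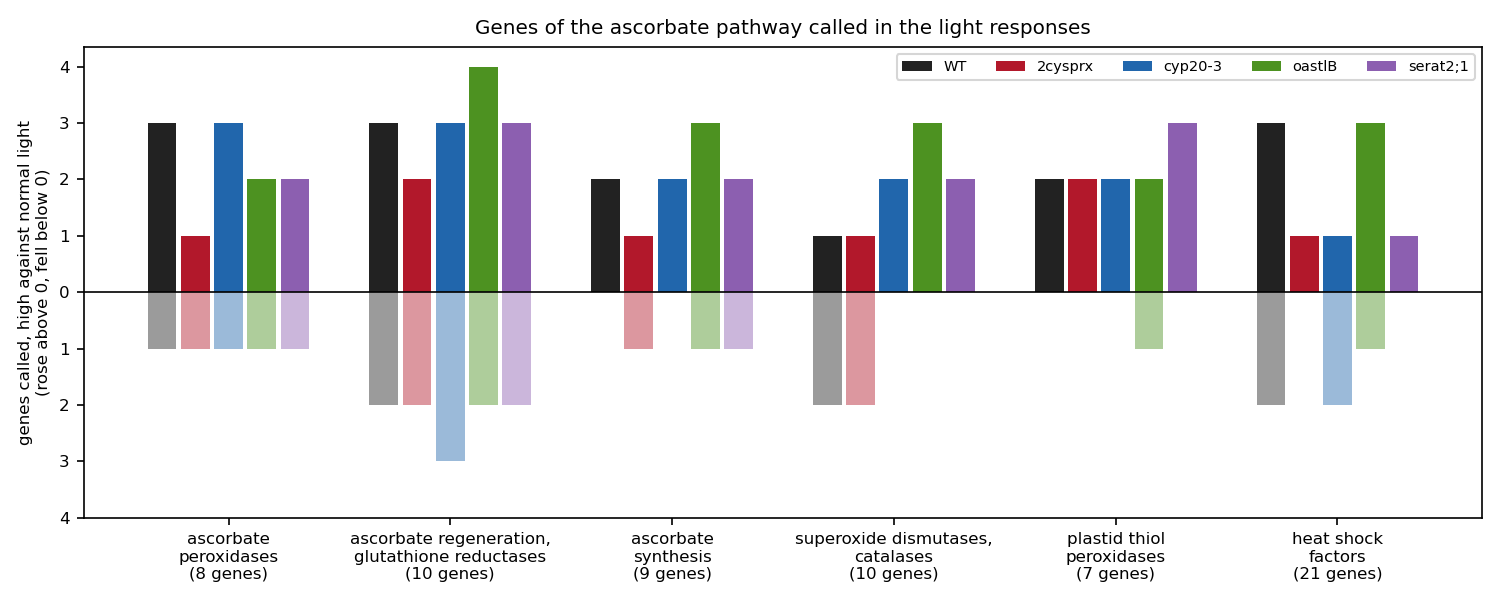
Number of genes called by limma at an adjusted p under 0.05 in the light response (vertical axis; rises above 0, falls below 0 in paler colour) for the 8 ascorbate peroxidases and 5 related lists, with 1 bar per genotype. The ascorbate peroxidases show 3 rises in WT and cyp20-3, 2 in oastlB and serat2;1 and 1 in 2cysprx, with 1 fall in each.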

How the data were processed

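Total RNA of the shoots was labelled with biotin and measured on Affymetrix arrays of a single colour, as the labels' protocols state. The authors deposited RMA values on the log2 scale, per the submitters' processing notes. The sources used here state neither the RMA version nor the array type nor the probes of a probe set, and the deposited values hold no detection calls, so the number of arrays sets the precision. All 40 columns matched 1 sample each, and 0 other per-sample columns were present. Symbols came from a TAIR10.1 gene table that held 27241 of the 27826 loci and all 8 members; 83 of 83 listed loci were found in it.

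A limma model (limma 3.58.1, R 4.3.3) with 1 mean per group took in all 40 arrays (30 residual degrees of freedom) and gave 17 two-sided contrasts. P-values were adjusted by Benjamini-Hochberg over all loci within a contrast, and loci were called at an adjusted p under 0.05. The steps were tested on simulated data. ± is the standard error of a difference from that fit. The members and lists were chosen with earlier results of these data known. Every member is named; a listed gene is named where it was called without overlap between groups (for differences in response, where called), at most the 2 largest per list and contrast, and the other values of a gene so named were added after they were seen. Nothing shows whether replicates were separate plants or pools beyond the label biological replicate. Promoters were not searched for motifs, since no sequence was used here. Alternatives tried were a replicate block, a prior variance that follows intensity (the intensity trend), the spread of the arrays compared alone, brighter loci only, array weights, renormalization by quantiles or cyclic loess, and leaving out each array in turn.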

Additional observations from a re-analysis of the deposited data

Results flagged for a closer look

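Single arrays stood far from the other 3 of their group by Dixon's criterion in 7 of 80 member groups, where chance gives about 1 in 20, or 4. They were APX1 in cyp20-3 HL replicate 4 (8.34, with the others all at 8.38), TL29 in serat2;1 HL replicate 4 (10.45, others 10.29 to 10.31), APX5 in 2cysprx HL replicate 2 (5.07, others 4.75 to 4.77) and sAPX in WT HL replicate 2 (8.39, others 8.50 to 8.52). For tAPX they were 2cysprx HL replicate 1 (10.34, others 10.12 to 10.15), cyp20-3 HL replicate 4 (9.71, the others all higher, up to 10.05) and serat2;1 HL replicate 3 (9.85, others 9.94 to 9.95). The targeted gene 2CPA read 9.0 on 2cysprx HL replicate 2, against 5.13 to 5.78.

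The light response differed from that of WT by limma's test of the difference itself for these genes. sAPX was at -0.57 in 2cysprx and -0.43 in oastlB. In 2cysprx, DHAR2 was at -1.09, VTC4 at -0.53, GME at -0.45, FSD3 at -0.64, HSFA2 at -2.48 and CAT3 at 0.53. In oastlB, VTC4 was also at -0.53, CAT3 (AT1G20620, a catalase) at 0.49 and HSFA8 (AT1G67970, a heat shock factor) at 0.61. In serat2;1, VTC4 was at -0.48 and HSFA2 at -2.69, and in cyp20-3 HSFA2 was at -2.58. Adjusted p ran from 0.00171 for sAPX in 2cysprx to 0.0461 for VTC4 in serat2;1. All loci called were 6.09% in 2cysprx, 2.8% in oastlB, 2.29% in serat2;1 and 0.855% in cyp20-3. The VTC4 call in serat2;1 ended for 14 of 16 arrays left out singly, and that of HSFA8 in oastlB for 12 of 16. In oastlB the call of CAT3 ended for 3 of 16, and the count of the list with VTC4 ran from 0 to 2. With the spread of the arrays compared alone, each of these lists had 0 called there.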

How the results depend on the processing

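Of 136 member results, 22 were called, 15 of them under every alternative, and 7 lost the call in some; 7 of the 114 others were called in some. No called result changed sign, and 70 changes of sign were all among uncalled values. With an intensity trend, and again among brighter loci only (where APX2 drops out), members called numbered 2 in place of 0 for oastlB against WT in HL, 2 in place of 1 for the oastlB response difference and 1 in place of 0 for that of serat2;1, and 3 in place of 2 for the 2cysprx light response. With the spread of the arrays compared alone, they fell to 1 for the 2cysprx light response and to 0 for 2cysprx, oastlB and serat2;1 against WT in NL, 2cysprx against WT in HL and the oastlB response difference. The cause was not tested, though that fit has fewer arrays behind its spread.

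The replicate block left 0 of 8 called for 2cysprx against WT in HL (sAPX adjusted p = 0.0571). Of 52 same-numbered pairs, 2 had deviations from the group mean correlated above 0.1 (r from -0.11 to 0.12). In 19 of 52 the same number was the best match among the 4 arrays of the other group. Whether arrays of the same number shared a batch is not stated, and these values cannot decide it.

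Leaving out 1 array at a time, members called ran from 4 to 5 in the WT light response, 2 to 3 in 2cysprx, 4 to 4 in cyp20-3, 3 to 4 in oastlB and 3 to 3 in serat2;1. Against WT in NL they ran from 0 to 1 in 2cysprx, oastlB and serat2;1 and 0 to 0 in cyp20-3, in HL from 0 to 0 in all 4, and for the response difference from 1 to 1 in 2cysprx, 0 to 1 in oastlB and 0 to 0 in cyp20-3 and serat2;1.

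Over all loci, the spread of the arrays compared alone gave 873 calls in place of 2380 (2cysprx light), 2532 of 4495 (oastlB light), 1407 of 3184 (serat2;1 light), 618 of 2819, 2 of 13, 2 of 953 and 0 of 674 (2cysprx, cyp20-3, oastlB and serat2;1 in NL), 151 of 616, 390 of 622, 31 of 238 and 2 of 266 (the same in HL) and 1006 of 1694, 142 of 238, 140 of 779 and 184 of 638 (their response differences). Brighter loci only gave 41 in place of 13 (cyp20-3 NL), 1579 of 953 (oastlB NL), 1051 of 674 (serat2;1 NL) and 1342 of 779 (oastlB response difference). An intensity trend gave 30 in place of 13 for cyp20-3 in NL and 367 in place of 238 for oastlB in HL. Array weights gave 1036 in place of 616 and 1047 in place of 622 for 2cysprx and cyp20-3 in HL, and 8 in place of 13 for cyp20-3 in NL. Leaving out 1 array moved these counts by over 1.5 times for 7 of 8 arrays in cyp20-3 NL (lowest 3), 3 in oastlB NL (420), 4 in serat2;1 NL (335), 5 in 2cysprx HL (300), 1 in cyp20-3 HL (409), 6 in oastlB HL (69) and 5 in serat2;1 HL (76). For the response differences it did so for 6 of 16 arrays in cyp20-3 (119), 8 in oastlB (414) and 7 in serat2;1 (328).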
